A study of Mus musculus with 5 samples.

Results

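The genes described here load peptides onto MHC class I molecules and carry them to the cell surface, or control that process. They were chosen by name and function, but with earlier results of these data known. They number 8, of which all but Nlrc5 are among the 22372 protein-coding genes in the annotation: the classical heavy chains H2-K1 and H2-D1, their light chain B2m, the peptide transporter subunits Tap1 and Tap2, the loading factor Tapbp, the lipid-presenting class I-like gene Cd1d1 and the class I transactivator Nlrc5. Cxxc1 binds unmethylated CpG-rich DNA and is a component of the Setd1 complexes, which trimethylate lysine 4 of histone H3 (H3K4me3) at promoters. ChIP-seq was carried out on DP (double-positive) thymocytes, which are immature T cells with CD4 and CD8 on their surface, from the thymus of wild-type (WT) and Cxxc1-deficient mice. Antibodies to Cxxc1 and to H3K4me3 were used in both genotypes, which with a WT input made 5 samples of 1 library each. The 3 processed files list peaks of Cxxc1, of H3K4me3 in WT and of H3K4me3 in Cxxc1-deficient cells, and no list of the input or of the Cxxc1 antibody in deficient cells was used here.

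Per the study's methods, WT mice carried the floxed allele without Cre (Cxxc1 fl/fl) and deficient mice carried it with hCD2-Cre (Cxxc1 fl/fl hCD2-Cre), a human CD2-driven recombinase that acts from early thymocytes on and in other lymphoid cells. The sample titles name the deficient libraries KO, whereas their genotype label reads Cxxc1+/-, and the titles were followed. The Cxxc1 list was read as WT from the methods, since it carries no genotype of its own. Mice were 3 to 4 weeks old unless specified otherwise, and no treatment was named. With 1 library per group there was no replicate check, so no p-value was computed for any difference between genotypes. The methods name input and Cxxc1-deficient ChIP as controls for peak calling without saying which served each H3K4me3 list. If the WT list was called against deficient ChIP, being listed in WT depends in part on the deficient signal, and the lists carry no record of their control. Being listed in WT did not always go with a lower summed signal in deficient cells. Of 893 genes with a promoter peak in both lists, 667 were lower in deficient cells. These genes were all listed in deficient cells as well, and each sum runs over the windows of its own list. They therefore do not tell which control was used, and that was not tested.

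A peptide-loaded class I molecule is a heavy chain paired with beta-2-microglobulin. Peptides cut by the proteasome are pumped into the endoplasmic reticulum by the Tap1-Tap2 transporter, and tapasin (Tapbp) holds empty class I molecules next to it. Nlrc5 acts on class I promoters together with RFX, CREB/ATF and NF-Y factors, which bind the conserved X and Y boxes. In the thymus, class I molecules select CD8 T cells, and CD1d on DP thymocytes selects natural killer T cells.

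The promoter sequences are shown first because H2-K1, H2-D1 and B2m have a shared element in them and yet differ in the H3K4me3 lists. RefSeq promoters (GRCm38.p6) were at hand for 5 of the 8 genes, namely H2-K1, H2-D1, B2m, Tap1 and Tapbp, and each stretch upstream of a transcription start site (TSS) was found exactly once at its gene in mm9. A motif like the X2 box (TGACG) was followed by an inverted CCAAT motif like the Y box (ATTGG), with 20 bases between them, in 3 of these 5. Among the other class I and class I-like genes the pair was found only in H2-M3, but how many of them had a promoter sequence to search was not counted. The 30 bases of the pair and its gap are given for these 3 genes and H2-M3, with the 2 motifs in capitals:
H2-K1: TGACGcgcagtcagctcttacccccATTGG
H2-D1: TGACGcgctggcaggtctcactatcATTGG
B2m: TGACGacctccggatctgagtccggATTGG
H2-M3: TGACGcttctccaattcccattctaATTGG

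The pair lay on the coding strand of each gene, at chr17:34137304-34137333 (minus strand) for H2-K1, chr17:35399938-35399967 for H2-D1, chr2:121973345-121973374 for B2m and chr17:37407133-37407162 for H2-M3. Of 32851 RefSeq promoter stretches of 250 bases, 30 held the pair at this spacing on either strand (0.0913%), from 26 genes. TGACG alone was found on either strand in 17.8% of them and ATTGG in 33.8%. The search for the pair was made after the sequences had been seen, so it describes these promoters and tests nothing. Between the motifs, H2-K1 and H2-D1 had the same base at 13 of 20 positions, whereas B2m had the same base as H2-D1 at 2 and as H2-K1 at 3. The H2-D1 pair lay in the annotated 5′ untranslated region of a transcript that starts further upstream, so only these 30 bases of it are printed.

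The 250 bases before the H2-K1 TSS (chr17:34137279-34137528, minus strand) and before the B2m TSS (chr2:121973173-121973422) are given 5′ to 3′, with every motif searched in capitals:
H2-K1: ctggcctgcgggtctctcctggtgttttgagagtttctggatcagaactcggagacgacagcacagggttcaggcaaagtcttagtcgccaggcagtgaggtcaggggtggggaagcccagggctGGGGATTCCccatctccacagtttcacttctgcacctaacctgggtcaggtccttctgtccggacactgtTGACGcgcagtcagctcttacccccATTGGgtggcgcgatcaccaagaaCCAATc
B2m: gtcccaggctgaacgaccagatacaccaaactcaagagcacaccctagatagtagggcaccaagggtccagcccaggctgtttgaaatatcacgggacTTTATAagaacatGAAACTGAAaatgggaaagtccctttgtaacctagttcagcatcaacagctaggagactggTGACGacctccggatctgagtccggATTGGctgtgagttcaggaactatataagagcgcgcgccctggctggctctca

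The motifs searched, on both strands, were the X2-like and Y-like motifs above, a kappa B motif (GGGGATTCC), an interferon regulatory factor core (GAAANNGAA), a GC box (GGGCGG) and a TATA box (TATAAA). Positions are counted back from the TSS, the base before it being -1, and give the first base of the match. In H2-K1 the kappa B motif was at -125 and TGACG at -55. In H2-D1 they were at -171 and -101, and TATAAA was at -26. GGGGATTCC was found in 0.213% of all promoter stretches, GAAANNGAA in 7.13%, GGGCGG in 32.7% and TATAAA in 12.4%. B2m held the interferon core at -139 and no GGGGATTCC. Only the strings given above were searched, so other forms of these motifs were not looked for in any of the promoters. Tap1 held TGACG at -86, ATTGG at -222 and a GC box at -176. Tapbp held ATTGG at -248 and -165, a GC box at -51 and no TGACG. Over their best local alignment, the H2-K1 and H2-D1 stretches were identical in 172 of 192 columns (89.6%).

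Signal was taken as the summed value of the listed 200-bp windows, in tags per 1000000 mapped tags (RPM), over the promoter, meaning within 1 kb of any annotated TSS. The extended gene body was the gene and 10 kb upstream of it. A place without a listed window had an unknown value, not 0. Each interval is a 95% Poisson interval of the tags and covers counting error only. The smallest step between values put the depth between 9.42 and 9.47 M tags in both H3K4me3 libraries and between 9.10 and 9.23 M tags in the Cxxc1 library, so depth did not separate the genotypes. The weakest peak in each list held 1.1 RPM.

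In WT cells, 5 of the 8 genes had H3K4me3 at the promoter: H2-D1, B2m, Tap1, Tap2 and Tapbp. The background was 31.1% of all protein-coding genes. In Cxxc1-deficient cells, 1 of the 8, Tap2, was listed, against a background of 5.86%. Of the 5 genes with a WT promoter peak 1 was also in the deficient list, where 12.8% of all genes with a WT promoter peak were. Over the extended gene body, 6 of 8 had WT H3K4me3 against a background of 41.5%, and 2 of 8 had deficient H3K4me3 against 11.0%. No Cxxc1 peak was found at any of the 8 promoters, against a background of 1.96%, or in any of the 8 extended gene bodies, against 11.1%. A background of 11.1% comes to less than 1 gene in 8, so the absence of Cxxc1 peaks does not set these genes apart.

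**Figure D1:**
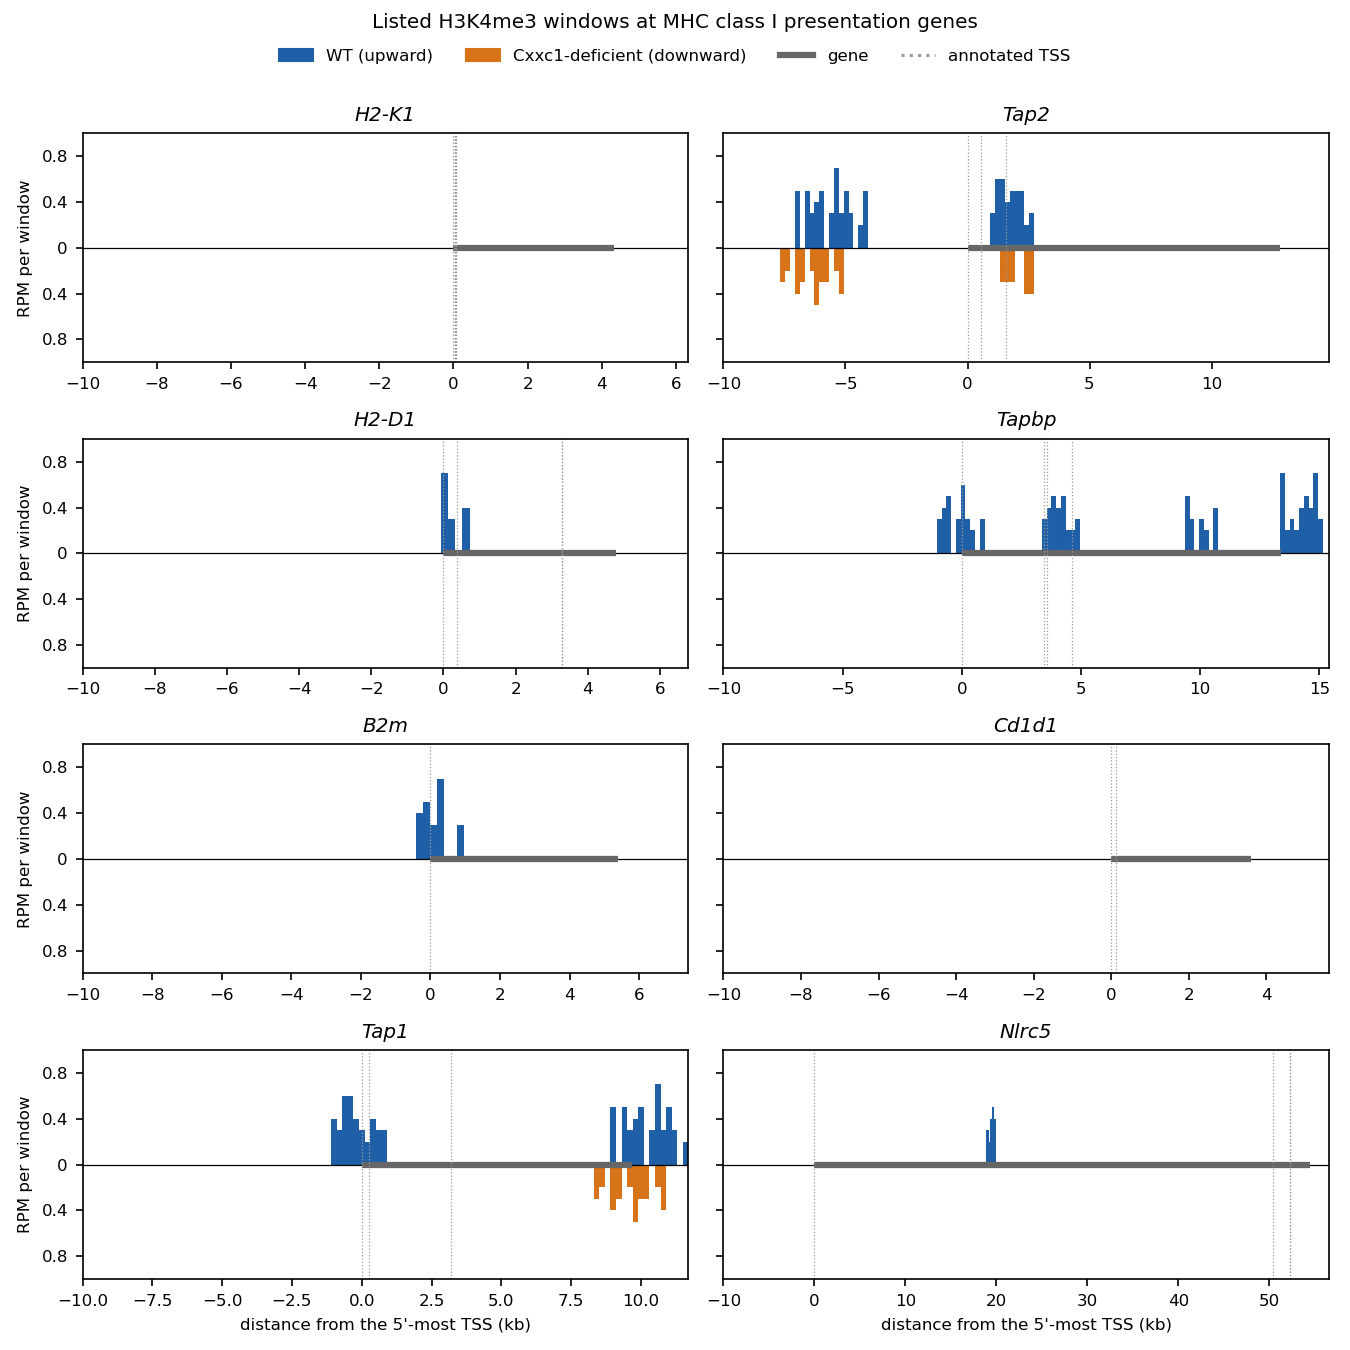
Listed H3K4me3 windows at each of the 8 genes, by distance from the 5′-most TSS in kb along the direction of transcription. Bars give RPM per window, upward for WT and downward for Cxxc1-deficient cells, the grey line is the gene and dotted lines are annotated TSSs. WT bars stand at the TSS of H2-D1, B2m, Tap1 and Tapbp, deficient bars are seen in the Tap1 and Tap2 panels, and no bar is drawn for H2-K1 or Cd1d1.

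The heavy chains differed from each other. H2-D1 (ENSMUSG00000073411.4, chr17:35399675-35404444, plus strand) had a WT peak at chr17:35399601-35400400 over its 2 upstream TSSs. Its 3 listed windows held 0.7, 0.3 and 0.4 RPM, in all 1.4 RPM or 14 tags (interval 0.811 to 2.49 RPM). That was a low value, since 6.02% of the genes with a WT promoter peak had a lower one. The window with the pair of motifs held 0.3 RPM. H2-D1 had no listed window in the deficient library, where the nearest peak was 29.5 kb away. At 1.4 RPM or below lay 3.76% of deficient peaks, so a signal as weak as the WT one at H2-D1 was near the lower end of what was listed at all.

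H2-K1 (ENSMUSG00000061232.8, chr17:34132962-34137278, minus strand) had no listed window around any of its 6 TSSs or over its extended gene body in any of the 3 lists. The nearest WT peak, of 2.4 RPM, was 23.7 kb away. Reads were kept only where they mapped to 1 place, and the class I heavy chains are close copies of each other, so the share of 50-base stretches found exactly once in mm9 was computed at each gene. Within 1 kb of the 5′-most TSS it was 87.8% at H2-K1 and 96.8% at H2-D1. Over the whole promoter, within 1 kb of any annotated TSS, it was 87.9% and 89.2%. In the 200-bp steps from 0.3 kb before to 0.3 kb after the H2-K1 TSS it was 99% to 100%, and it fell to 66.0% at 0.5 kb upstream. Stretches that differ from a copy by 1 or 2 bases count as unique here, and how reads with such mismatches were treated is not given in the sources used here. What part this had in the missing H2-K1 peak was not tested.

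**Figure D2:**
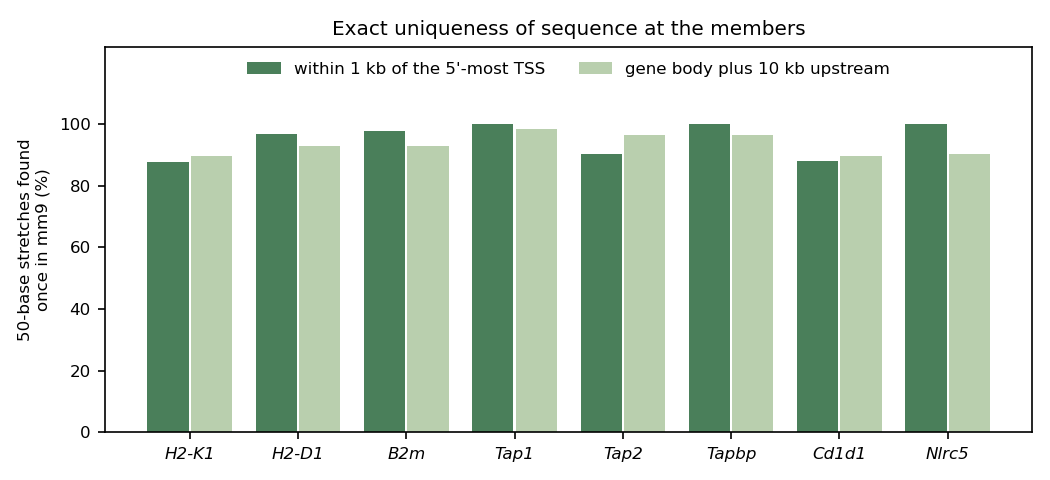
Share of 50-base stretches found exactly once in mm9, in percent, within 1 kb of the 5′-most TSS (dark bars) and over the gene body plus 10 kb upstream (light bars). H2-K1 and Cd1d1 have the lowest values near the TSS, 87.8% and 88.2%, next to 90.3% at Tap2.

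B2m (ENSMUSG00000060802.8, chr2:121973422-121978819, plus strand) encodes the light chain of peptide-loaded class I molecules. Its single TSS lay in a WT peak at chr2:121973001-121974400, with 5 windows of 0.4, 0.5, 0.3, 0.7 and 0.3 RPM. The sum was 2.2 RPM or 22 tags (1.46 to 3.53 RPM), and 40.1% of genes with a WT promoter peak were lower. The window of 0.5 RPM just upstream of the TSS held the pair of motifs. In the deficient library the nearest peak was 22 kb away. Of all deficient peaks, 68.3% held 2.2 RPM or less, so a peak of the WT strength of B2m was within the usual range of that list.

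Tap1 and Tap2 lie next to each other on chromosome 17, alternating with Psmb9 and Psmb8, which encode the inducible proteasome subunits that cut peptides for class I. Tap1 (ENSMUSG00000037321.9, chr17:34324498-34334170, plus strand) had a WT peak at chr17:34323401-34325400 with 10 windows, 3.8 RPM or 38 tags (2.85 to 5.52 RPM). The divergent gene Psmb9 starts in the same peak, so this signal belongs to both. Of genes with a WT promoter peak, 89.9% were lower. No window within 1 kb of a Tap1 TSS was listed in the deficient library, and the 1.4 RPM within its extended gene body there came from the peak over the start of Psmb8.

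Tap2 (ENSMUSG00000024339.6, chr17:34340472-34353266, plus strand) was the only one of the 8 with a promoter peak in the deficient list. The WT peak at chr17:34341401-34343200 had 9 windows, 3.9 RPM and 39 tags (2.94 to 5.65 RPM). The deficient peak at chr17:34341801-34343200 had 5 windows, 1.7 RPM and 17 tags (1.05 to 2.88 RPM). The 2 intervals did not overlap, but the sums run over different numbers of windows. Over the 5 windows listed in both libraries the values were 2.0 RPM (20 tags) in WT and 1.7 RPM (17 tags) in deficient cells, with WT higher in 3 windows and lower in 2. The larger sum in WT was thus mostly in windows that the deficient list lacks. Both peaks covered the downstream TSS at position 34342045. Around the 5′-most TSS, at 34340472, the WT value was 0.3 RPM and nothing was listed in deficient cells, so the call for Tap2 in the deficient list rests on the choice of TSS. Within 500 bp of a TSS the Tap2 values were 2.9 RPM in WT and 0.9 RPM in deficient cells.

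The peak at the start of Psmb8, between Tap1 and Tap2, was also in both lists. It held 5.0 RPM (50 tags, 3.93 to 6.98 RPM) in WT and 3.1 RPM (31 tags, 2.23 to 4.66 RPM) in deficient cells. Over the 6 windows in both, WT had 2.7 RPM and deficient cells 2.0 RPM. Within this stretch, then, the Psmb9-Tap1 peak was the one missing from the deficient list, and the Psmb8 and Tap2 peaks were found in both with lower sums in deficient cells. For comparison, 893 genes had a promoter peak in both lists, with medians of 2.6 RPM in WT and 1.8 RPM in deficient cells, and 667 of them (74.7%) were lower in deficient cells.

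**Figure D3:**
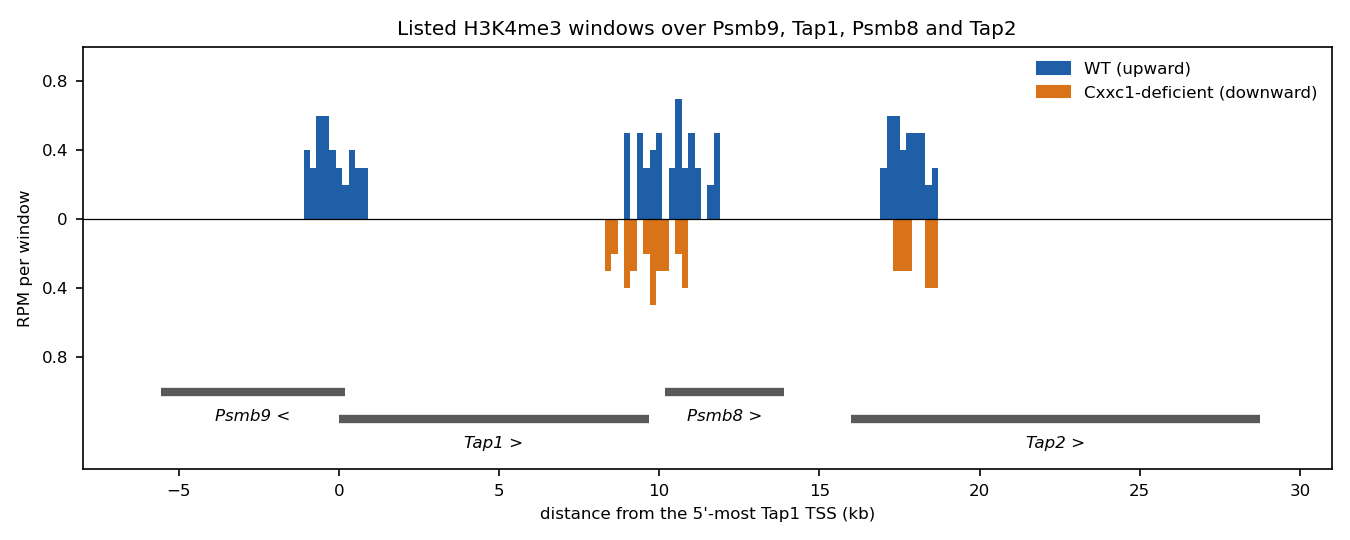
Listed H3K4me3 windows from Psmb9 to Tap2 by distance from the 5′-most Tap1 TSS in kb, as RPM per window, upward for WT and downward for Cxxc1-deficient cells. Grey bars mark the genes, with arrowheads for the strand. The WT peak shared by Psmb9 and Tap1 (3.8 RPM) has no deficient counterpart, whereas the Psmb8 peak (5.0 and 3.1 RPM) and the Tap2 peak (3.9 and 1.7 RPM) have one.

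Tapbp (ENSMUSG00000024308.7, chr17:34052844-34066235, plus strand) had the highest WT value of the 8 genes, 5.7 RPM or 57 tags (4.57 to 7.82 RPM), above 98.8% of genes with a WT promoter peak. This was the sum of 2 peaks at its 4 TSSs. The first, of 2.9 RPM, covered the 5′-most TSS and that of the neighbour Zbtb22, and the second, of 2.8 RPM, covered the other 3 TSSs. Taken singly, each peak was above 71.8% and 68.9% of WT peaks. A further peak of 1.7 RPM lay in the gene body, and another of 3.7 RPM began at the 3′ end and covered the TSS of Rgl2. None of these 4 peaks was in the deficient list, in which the nearest peak was 193 kb away. The genes most like Tapbp in promoter RPM over these 2 libraries were Epb4.1, Kif17 and Ndst1, each with 5.7 RPM in WT and none listed in deficient cells, among 5 genes with no difference from it.

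Cd1d1 (ENSMUSG00000028076.6, chr3:86799756-86803363, minus strand) had no listed window in any list. The nearest WT peak was 85.2 kb away. Exactly unique stretches made up 88.2% of the sequence within 1 kb of its 5′-most TSS. Nlrc5 (ENSMUSG00000074151.5, chr8:96996663-97051172, plus strand) had no promoter peak either. The annotation holds no protein-coding transcript of it, so the starts of its non-coding transcripts were used. A WT peak of 1.8 RPM or 18 tags (1.13 to 3.01 RPM) lay inside the gene at chr8:97015601-97016600. The gene spans 54510 bp in this annotation and 92938 bp in RefSeq, which is 38.4 kb longer, and the RefSeq start was not placed on mm9. A further WT peak of 1.8 RPM lay 38.4 kb upstream of the start used here, at chr8:96958001-96958600. The value of Nlrc5 at the promoter therefore holds only for the starts in this annotation.

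**Figure D4:**
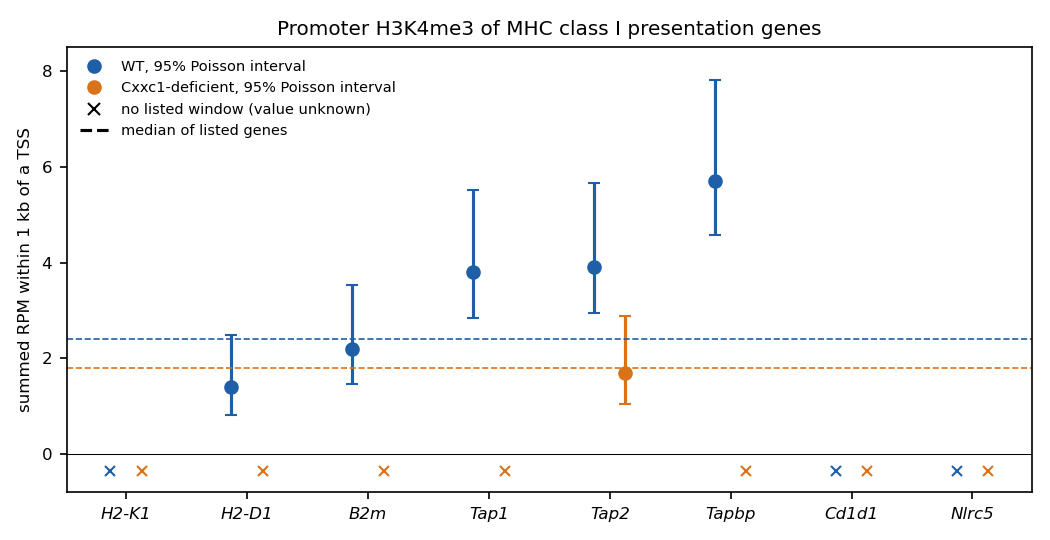
Summed H3K4me3 within 1 kb of a TSS, in RPM, for the 8 genes in WT (blue) and Cxxc1-deficient cells (orange), 1 library each. Bars are 95% Poisson intervals of the tags, crosses below 0 mark genes without a listed window, whose value is unknown, and dashed lines are the medians of all listed genes (2.4 and 1.8 RPM). WT values run from 1.4 RPM at H2-D1 to 5.7 RPM at Tapbp.

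Summed over all TSSs of a gene, the order of WT promoter RPM was Tapbp, Tap2, Tap1, B2m and H2-D1. The intervals of neighbours in this order overlapped in every case, whereas those of Tapbp and B2m, and of Tap1 and H2-D1, did not. All genes with a WT promoter peak had a median of 2.4 RPM (quartiles 1.9 and 3.0), so Tap1, Tap2 and Tapbp were above the upper quartile and H2-D1 below the lower. The order rests on the choice of TSS. With the 5′-most TSS only, Tap1 kept 3.8 RPM and came first, Tapbp had 2.9 RPM, and Tap2 had 0.3 RPM and came last. The quartiles are of sums over all TSSs and were not computed for this setting.

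CpG dinucleotides, to which Cxxc1 binds, were counted within 500 bp of the 5′-most TSS. H2-K1 had 80, more than 82.3% of genes, and it had no listed H3K4me3 window. Of the genes with 80 or more, 60.5% had a WT promoter peak. Tap1 had 64, Tapbp 53, B2m 42, H2-D1 41, Cd1d1 27, Nlrc5 11 and Tap2 9. The median was 68 over genes with a WT promoter peak and 22 over those without. Tap2 therefore had a peak with few CpGs at its 5′-most TSS, where 6.54% of genes with under 20 had one, but its peak was centred on a TSS further downstream.

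Genes that work with the 8 were described by lists. Of 16 genes of class I antigen processing and folding, 12 had a WT promoter peak (75%), with a median of 2.2 RPM, and 4 a deficient one (25%), beside 31.1% and 5.86% of all protein-coding genes. Psmb8 and Psmb9 each had 3.8 RPM in WT, and Calr and Ganab, a chaperone and a glucosidase of class I folding, each had 2.9 RPM. In deficient cells Psmb8 had 2.2 RPM, and Psmb9, Calr and Ganab were not listed. Psme2, a subunit of the proteasome activator, had 2.1 RPM in WT and 2.4 RPM in deficient cells, and the chaperone Hspa5 had 2.6 and 1.8 RPM. Uggt1, which re-glucosylates misfolded glycoproteins, was listed in deficient cells only, with 1.5 RPM. A Cxxc1 peak was found in 1 of the 16 extended gene bodies (6.25%, beside 11.1% of all genes), that of the tapasin-related Tapbpl (2.4 RPM).

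Of 24 genes for regulators of class I transcription, 19 had a WT promoter peak (79.2%), with a median of 2.5 RPM, and 3 a deficient one (12.5%), beside the same 31.1% and 5.86% of all genes. Of the genes with a WT promoter peak, 3 of 12 in the pathway and 2 of 19 among the regulators were also in the deficient list, beside 12.8% of all such genes. The highest in WT were the NF-Y subunit Nfya with 4.7 RPM, the NF-kappa B subunit Rela with 4.1 RPM, and Irf3, with 3.3 RPM, which encodes an interferon regulatory factor. Irf7, another such factor, and the X2-binding factor Creb1 each had 3.0 RPM. Rela (2.5 RPM) and Irf7 (2.1 RPM) were also in the deficient list, and Nfya, Irf3 and Creb1 were not. The promoter of Rfxank, an RFX subunit, was listed in deficient cells only, with 1.8 RPM. Over its extended gene body, Rfxank had 4.5 RPM in WT and 1.8 RPM in deficient cells. Cxxc1 peaks were found in 5 of the 24 extended gene bodies (20.8%, beside 11.1% of all genes), with 6.7 RPM in Nfkb1, 1.9 RPM in Irf2, 1.8 RPM in Irf8, 1.7 RPM in Creb1 and 1.4 RPM in Ifnar2. Only at Irf2 did a Cxxc1 peak, with 1.1 RPM, reach the promoter.

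The other class I and class I-like genes were mostly not listed. Of 22 in the annotation, 2 had a WT promoter peak (9.09%, beside 31.1% of all genes), namely H2-M3 with 2.0 RPM and H2-Q4 with 1.8 RPM. H2-M3, which presents formylated peptides, was also in the deficient list, with 1.9 RPM. Some H2 genes among them may have close copies, but uniqueness was not computed for any of the 22, and what part it had was not tested. Of 11 class II genes, 2 had a WT promoter peak (18.2%, beside 31.1% of all genes), H2-Oa with 1.7 RPM and H2-DMa with 1.4 RPM. H2-Ab1 was listed in deficient cells only, with 1.1 RPM. Cxxc1 peaks were found in 3 of the 11 extended gene bodies (27.3%, beside 11.1% of all genes), those of Cd74 (2.9 RPM), H2-Aa (1.5 RPM) and H2-Eb1 (1.5 RPM). H2-Aa and H2-Eb1 had equal values, and whether a single peak was counted for both was not checked.

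**Figure D5:**
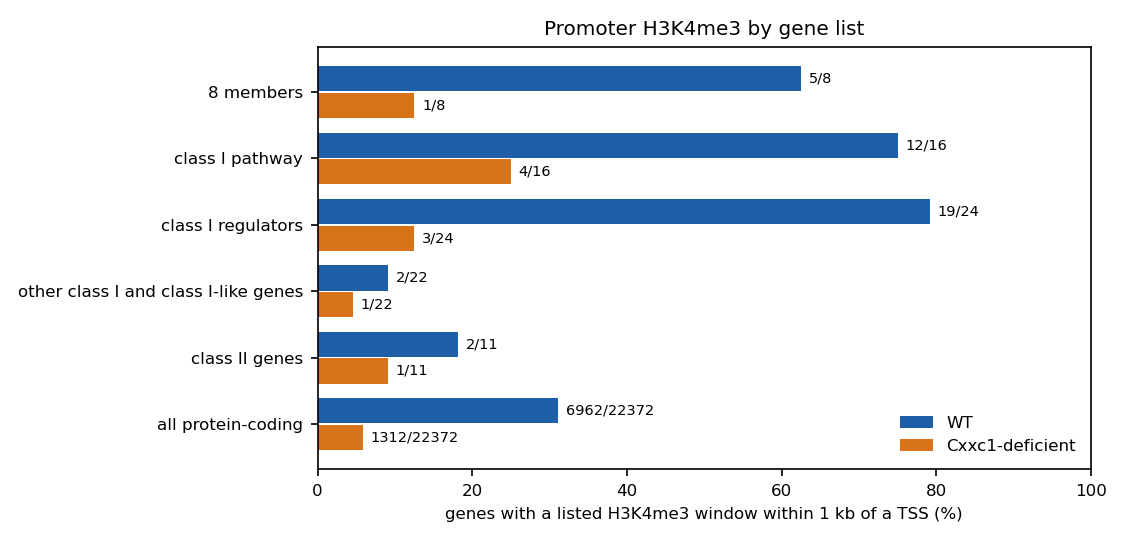
Share of each gene list with a listed H3K4me3 window within 1 kb of a TSS, in percent, in WT (blue) and Cxxc1-deficient cells (orange), with the counts beside the bars. The 8 genes (62.5%), the class I pathway (75%) and the class I regulators (79.2%) have WT shares above the 31.1% of all protein-coding genes, and the other class I and the class II genes have lower ones.

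Markers of cell types were looked up in the same lists. Of 9 DP thymocyte markers, 3 had listed windows at the promoter in WT (33.3%, beside 31.1% of all genes). They were Cd8b1 with 3.0 RPM, Cd8a with 2.7 RPM and Cd3e with 1.8 RPM. In deficient cells 3 had them as well (33.3%, beside 5.86% of all genes), Cd3e with 1.9 RPM, Cd8a with 1.5 RPM and Rag1 with 0.7 RPM. Cd4, Cd3d, Cd3g, Rag2 and Ptcra had none at the promoter in either genotype. Over the extended gene body, WT cells had 2.2 RPM at Cd4 and 2.9 RPM each at Cd3d and Cd3g, with nothing listed in deficient cells. Rag2 and Ptcra had nothing listed there in either genotype. DP cells carry CD4 on their surface, so the lists can lack the promoter of a gene in use. Listed windows were also found in WT within 1 kb of a TSS at 2 of 5 B cell markers (40%), Ebf1 with 1.7 RPM and Cd79b with 0.4 RPM. Among 5 myeloid markers 2 had them (40%), Spi1 with 2.2 RPM and Cebpa with 1.2 RPM. Of 4 erythroid markers 1 had them (25%), Klf1 with 0.9 RPM, and of 5 thymic epithelium markers 0. The WT share of DP markers was thus near that of all genes and below those of B cell and myeloid markers, so these counts do not identify the cell type. The values of Rag1, Cd79b and Klf1 are below the weakest peak and come from the part of a wider peak that reaches into the promoter. In deficient cells the counts for these other cell types were 0, 1, 0 and 0, the 1 being Spi1 with 1.3 RPM (20% of the myeloid markers, beside 5.86% of all genes). Most nucleated cells carry class I molecules, and the part of other cells in the signal of the 8 genes was not tested.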

How the data were processed

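Chromatin from DP thymocytes was formaldehyde-fixed, sonicated and sequenced in 50-bp reads (CASAVA 1.8.2). Per the study's methods and the submitters' processing notes, the authors mapped reads to mm9, kept uniquely mapped ones and called islands with SICER 1.1 at an FDR of 1e-05 with input and Cxxc1-deficient ChIP as controls; which control served each H3K4me3 list and the aligner are not given in the sources used here. The authors deposited the 200-bp windows of the islands with a value in RPM to 1 decimal. Uniqueness limits and an FDR threshold per library decide which windows are listed.

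Windows separated by at most 2 missing ones were joined into peaks. TSSs came from protein-coding transcripts of GENCODE vM1. RPM was turned into tags by the step between values. The genes named were the 8 members, genes starting in their peaks, up to 4 per list by WT RPM and the 3 most like the member with the highest WT RPM. Genes listed in deficient cells only, genes with a deficient or a Cxxc1 peak and marker genes were named after their values were seen. Members and lists were chosen with earlier results of these data known. Python 3.11.15, numpy 2.4.6, scipy 1.17.1, Biopython 1.88 and matplotlib 3.10.9 were used. The functions that find promoter windows and the value of 1 tag were tested on simulated data.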

Additional observations from a re-analysis of the deposited data

How the results depend on the processing

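With the stronger 50% of each list, 3 of the 8 genes (Tap1, Tap2 and Tapbp) had a WT promoter peak and 0 had a deficient one, and all protein-coding genes with one numbered 4191 in WT and 706 in deficient cells instead of 6962 and 1312. With the 5′-most TSS only, 0 of the 8 had a deficient promoter peak, and the WT values of Tap2 and Tapbp were 0.3 and 2.9 RPM. Promoters of 500 bp or 2.5 kb and a minimum of 3 windows gave the same 5 WT genes and the same deficient gene, Tap2. Within 500 bp the Tap2 values moved to 2.9 RPM in WT and 0.9 RPM in deficient cells. The count of Cxxc1 peaks was 0 in the gene body alone, with 50 kb upstream and in the stronger 50%. The gene body alone and the stronger 50% lie within the main setting, so only the 50 kb setting could have differed. Of 41 alternative values, 31 were the same, these fixed ones included, and 10 moved. No paired analysis was possible because a group was a single library and nothing shared a replicate. Sums of 14 to 57 tags limit each value, and places without a listed window have no value.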
